A study of Mus musculus with 6 samples.

Results

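The 10 genes described here encode secreted WNT antagonists: the secreted frizzled-related proteins (Sfrp1, Sfrp2, Sfrp4 and Frzb), the dickkopf proteins (Dkk1, Dkk2 and Dkk3), the WNT-binding inhibitor Wif1, the WNT-inactivating enzyme Notum, and Sostdc1, an inhibitor of the sclerostin family. They were taken by gene symbol from a table of 23718 mouse genes, and 10 of 10 were found and had a mean value high enough to be tested. The samples came from incisors of mice aged 1 month, labelled C57BL/6 (the study's methods describe a mixed background), in which a tamoxifen-inducible Cre (CreER) switches on the red fluorescent reporter tdTomato (tdT). In the MSC group (mesenchymal stem cells, 3 libraries) the genotype was Gli1-CreER;tdT, and in the TAC group (transit amplifying cells, 3 libraries) it was Axin2-CreER;tdT. Every mouse had received tamoxifen 1 day before, and labelled areas at the cervical loop were cut from frozen sections by laser capture, so a library is the RNA of a captured area and can include neighbouring cells. Fewer cells of a type and less RNA per cell cannot be told apart in such samples. No unlabelled or Cre-free group was analysed here, and the genotype differs between the groups together with the captured area.

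WNT proteins are lipid-modified ligands that bind a Frizzled receptor and the co-receptors LRP5 or LRP6, after which β-catenin enters the nucleus and acts with TCF/LEF factors on target genes. Secreted antagonists stop this outside the cell at different steps. SFRPs, Frzb and Wif1 bind the ligand itself, Notum cuts off the lipid that the ligand needs, and Dkk1, Dkk2 and Sostdc1 bind the LRP co-receptors, the DKKs together with Kremen proteins. Dkk1, Notum and Axin2 are known as targets of the same pathway, and in the tooth WNT inhibition is known to take part in setting tooth number and in the growth of the continuously growing incisor.

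Upstream sequence was available for 5 of the 10 genes (Sfrp2, Frzb, Dkk1, Dkk2 and Wif1), from RefSeq on GRCm38.p6, the build that mm10 stands for. The RefSeq start site is the same as the start of the gene given here for Sfrp2 and Dkk2, while for Frzb, Dkk1 and Wif1 it lies 229, 169 and 44 bases inside the gene. The 250 bases before the start are shown for Sfrp2, which had the largest log2 difference of the 10 between the groups, and for Dkk2, a DKK gene whose start site is the same in both annotations. Sfrp2 is the sequence at chr3:83766071-83766320 and Dkk2 that at chr3:132085042-132085291, both on the plus strand. Capitals mark the letters CTTTGA or CTTTGT, which are the core of a TCF/LEF site, and TATAAA, the TATA box, on either strand.
Sfrp2: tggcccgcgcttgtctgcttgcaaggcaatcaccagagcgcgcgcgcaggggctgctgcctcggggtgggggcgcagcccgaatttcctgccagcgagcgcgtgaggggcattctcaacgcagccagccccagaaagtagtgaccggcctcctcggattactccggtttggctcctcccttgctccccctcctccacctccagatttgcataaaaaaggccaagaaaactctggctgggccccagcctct
Dkk2: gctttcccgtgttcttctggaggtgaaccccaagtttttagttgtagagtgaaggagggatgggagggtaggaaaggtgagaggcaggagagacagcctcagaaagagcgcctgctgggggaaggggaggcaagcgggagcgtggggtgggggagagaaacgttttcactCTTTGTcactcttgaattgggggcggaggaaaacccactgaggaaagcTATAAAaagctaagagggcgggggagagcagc
The search covered both strands of 300-base windows, from 250 bases before to 50 after the RefSeq start site, and no 2 of the motifs overlapped in these genes. CTTTGA stood in the windows of Frzb and Dkk1, and in 16% of all 32851 promoter windows. CTTTGT stood in those of Dkk1 and Dkk2, and in 18.7% of all windows. Dkk1 held 3 such cores, at 174, 117 and 98 bases before its RefSeq start site, and a TATAAA at 54 bases before it, of which only the first core reaches upstream of the start of the gene given here. Dkk2 held 1 core at 80 bases and a TATAAA at 32 bases before the start site. TATAAA was found in 3 of the 5 windows, those of Dkk1, Dkk2 and Wif1, against 13.6% of all. The letters were counted at any position in the window. In Wif1 they stood 232 bases before the RefSeq start site, on the minus strand. The GLI core GACCACCCA, present in 0.253% of all windows, was found in none of the 5, and the Sfrp2 window held none of the letters searched. These matches are descriptions of sequence and no binding was measured.

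The values are normalized read values, in which the third quartile of each library is about 15.6. The libraries held 20203159 to 108156380 estimated reads. Replicate 3 of each group stood apart from replicates 1 and 2: mitochondrial rRNA took 0.112% to 0.236% of its reads against 8.28% to 9.07% in the others, and 28.3% (TAC) and 43.1% (MSC) of the listed genes had 0 reads against 6.89% to 8.36%. The antagonists are therefore given library by library, and their differences also within replicates 1 and 2 and within replicate 3. Log2 differences of other genes are for all 6 libraries unless stated. Gli1 was 256, 245 and 422 in MSC and 153, 141 and 396 in TAC, and Axin2 was 58.3, 48.0 and 12 in MSC and 56.8, 63.9 and 34.1 in TAC, so the groups overlapped for both marker genes of the Cre lines.

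Sfrp2 was higher in MSCs and was the only antagonist to pass the threshold, an adjusted p under 0.05 across all 15391 genes tested. Its value was 703, 691 and 521 in the MSC libraries and 39.3, 38.1 and 19.6 in the TAC libraries. Every MSC library lay far above every TAC library, with means of 638 ± 102 and 32.3 ± 11.1 (SD, n = 3 each) and a ratio of 19.8. On the log2(value + 1) scale the difference was -4.31 (SE 0.35), TAC minus MSC, with an adjusted p of 0.00876 by limma. Of all genes tested, 0.383% passed in this direction and 0.039% in the other, and the gene ranked 5 by p. Leaving out replicate 1 or 2 of either group took the call away (adjusted p of 0.0629 to 0.0770 by limma). The ratio of MSC to TAC was 17.9, 18.1 and 26.6 in replicates 1, 2 and 3. Sfrp2 lies at chr3:83766321-83774316 on the plus strand, and an antisense gene, Gm26771, overlaps it. Gm26771 had values of 4.74, 4.53 and 2.15 in MSC and of 0.917, 1.45 and 0.00379 in TAC. Whether strand was used in counting is not given in the sources used here, so reads of this pair cannot be told apart.

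**Figure D1:**
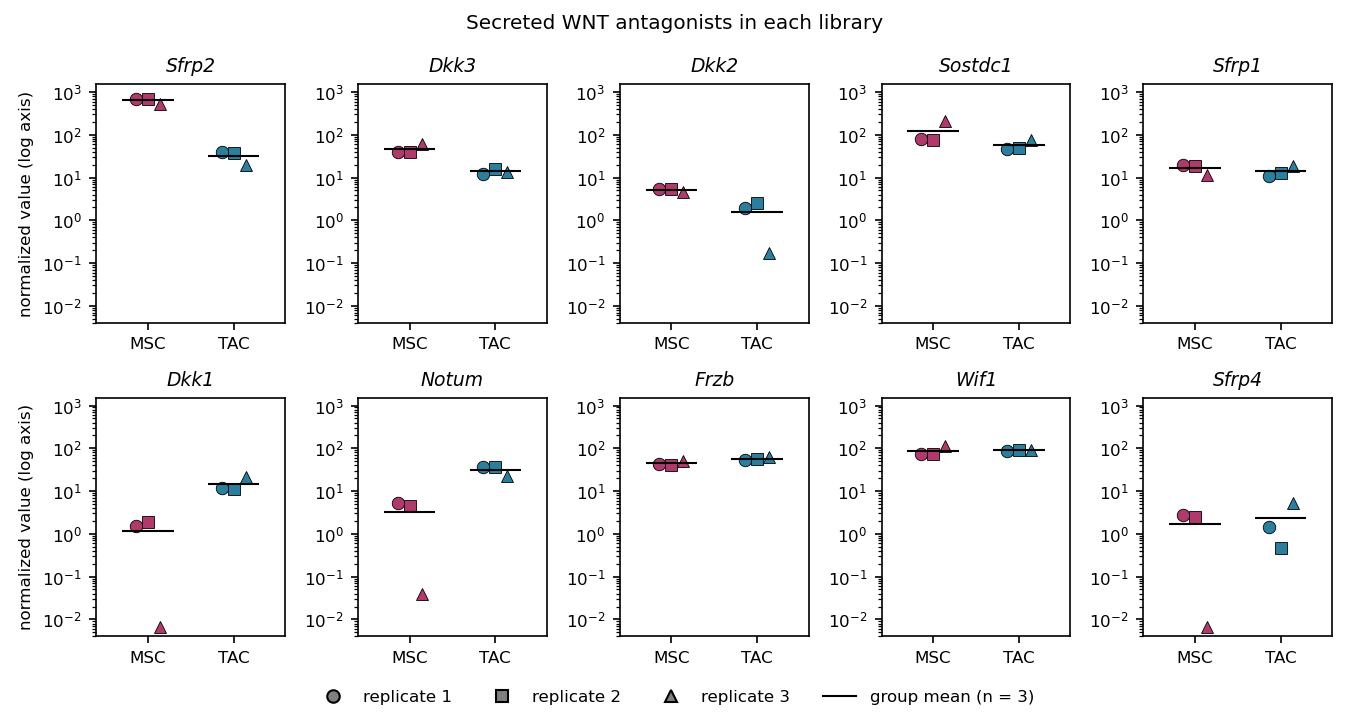
Normalized value (log axis) of each of the 10 antagonists in every library, MSC in magenta and TAC in blue, with a different symbol for each replicate and a line at the group mean (n = 3). Sfrp2 sits between 521 and 703 in MSC and between 19.6 and 39.3 in TAC, while Dkk1 and Notum are higher in TAC and lowest in MSC replicate 3. The points of Dkk1 and Sfrp4 in MSC replicate 3 stand for 0 reads and are drawn at 0.00666, the value the table gives there.

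The other genes of the SFRP group did not follow Sfrp2. Frzb (chr2:80411970-80447625, minus strand), which binds WNTs through a Frizzled-like domain, measured 42.0, 40.7 and 51.5 in MSC and 53.4, 55.8 and 62.6 in TAC. All TAC libraries were above all MSC libraries, but by a ratio of only 1.28 and a log2 difference of 0.35 (SE 0.25, adjusted p = 0.648). Sfrp1 (chr8:23411502-23449632, plus strand) was 19.2, 19.0 and 11.4 in MSC and 11, 12.7 and 18.8 in TAC. Its groups overlapped, being higher in MSC in replicates 1 and 2 and higher in TAC in replicate 3, and the log2 difference was -0.20 (SE 0.38, adjusted p = 0.897). Sfrp4 (chr13:19623104-19632994, plus strand) was the lowest of the family, at 2.72, 2.46 and 0.00666 in MSC and 1.47, 0.456 and 5.28 in TAC. MSC replicate 3 had 0 reads of Sfrp4, which allows a value of up to 0.0266 (3 reads, counting error only), whereas TAC replicate 3 had 1392 reads and the highest value of the 6. The Sfrp4 groups overlapped, with a log2 difference of 0.27 (SE 0.79, adjusted p = 0.943).

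Among the DKK genes the directions were opposed. Dkk3, the most divergent dickkopf, lies at chr7:112116017-112159057 on the minus strand and measured 39.5, 38.7 and 62.0 in MSC and 12, 16.1 and 13.7 in TAC. Every MSC value exceeded every TAC value, at means of 46.8 ± 13.2 and 14.0 ± 2.08 (SD, n = 3 each) and a ratio of 3.35. The log2 difference was -1.65 (SE 0.32), which passed the unadjusted threshold by limma but not the adjusted one (adjusted p = 0.104). Dkk2 (chr3:132085292-132180304, plus strand), which can bind LRP6, was lower overall at 5.28, 5.39 and 4.55 in MSC and 1.90, 2.61 and 0.174 in TAC. The groups did not overlap, and the log2 difference of -1.39 (SE 0.60) passed neither threshold (adjusted p = 0.427). With the replicate number as a block it passed the unadjusted threshold, as did 20.4% of all genes. The difference was -2.17 with a pseudocount of 0.1, -0.64 with 5 and -4.01 with voom on estimated reads. TAC replicate 3 had 45 reads of Dkk2 where MSC replicate 3 had 682.

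Dkk1, the DKK inhibitor best known for blocking LRP5 and LRP6, lies at chr19:30545863-30549665 on the minus strand and went the other way. Its value was 1.49, 1.94 and 0.00666 in MSC and 12, 10.9 and 21.4 in TAC. All TAC libraries were above all MSC libraries, and MSC replicate 3 had 0 reads (up to 0.0266 in value) where TAC replicate 3 had 5637. The log2 difference was 2.96 (SE 0.61), past the unadjusted threshold only (adjusted p = 0.119 by limma). Because the value of MSC replicate 3 is near 0, this difference depends on the pseudocount, and in replicates 1 and 2, where every library had at least 55 reads, the ratio of TAC to MSC was 8.04 and 5.63.

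Notum, the extracellular carboxylesterase that delipidates WNTs, showed the same arrangement of groups as Dkk1. It lies at chr11:120653788-120661175 on the minus strand and measured 5.24, 4.55 and 0.0399 in MSC and 36.7, 36.2 and 22.9 in TAC. Each TAC library was above each MSC library, with only 5 reads in MSC replicate 3, and the ratio of TAC to MSC was 7.0 and 7.96 in replicates 1 and 2. The log2 difference was 3.29 (SE 0.73), again past the unadjusted threshold only (adjusted p = 0.144). It too depends on how the few reads of MSC replicate 3 are treated, at 4.37 with a pseudocount of 0.1, 2.20 with 5 and 7.25 with voom on estimated reads. The antisense genes Notumos and Myadml2os overlap Notum. Notumos was 0.571, 1.16 and 0.00666 in MSC and 7.74, 7.74 and 0.681 in TAC, higher in TAC within each replicate, and its reads cannot be told apart from those of Notum without strand.

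Wif1, which binds WNTs through its WIF domain, was high in each group. It lies at chr10:121033960-121100650 on the plus strand and measured 73.1, 73.8 and 114 in MSC and 86.5, 92.8 and 89.4 in TAC. The TAC values fell inside the MSC range, and the log2 difference was 0.07 (SE 0.28, adjusted p = 0.961). Sostdc1, which binds LRP co-receptors and also BMPs, lies at chr12:36314139-36318452 on the plus strand. It measured 79.6, 77.3 and 211 in MSC and 46.7, 49.6 and 76.8 in TAC. The lowest MSC value, 77.3, was just above the highest TAC value, 76.8, and replicate 3 was the highest library in each group. The log2 difference of -0.94 (SE 0.45) did not pass (adjusted p = 0.473). With the replicate number as a block it passed the unadjusted threshold only, as Dkk2 did.

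**Figure D2:**
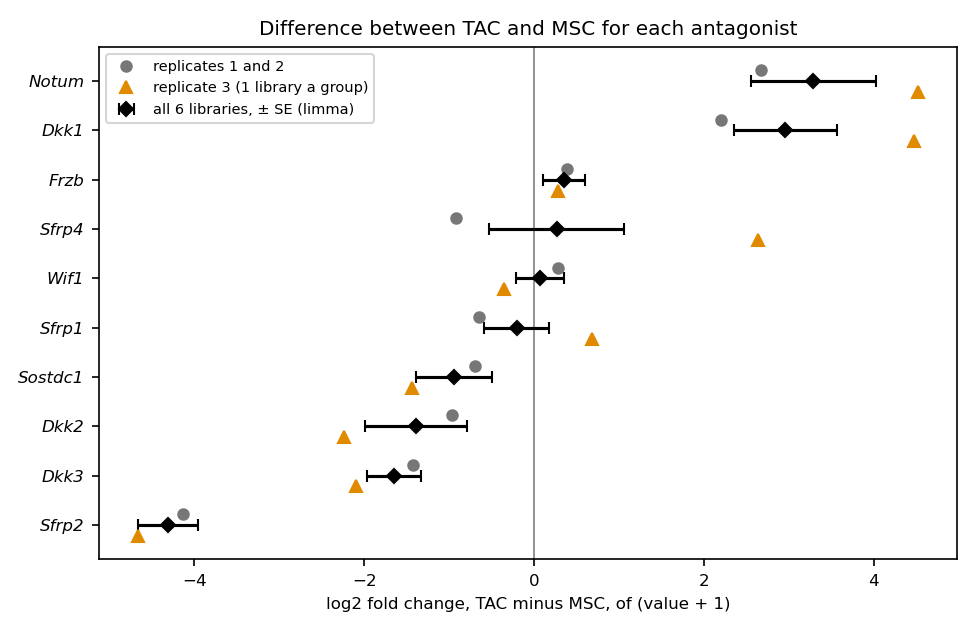
Log2 fold change, TAC minus MSC, of the value plus 1 for each antagonist: diamonds with bars are all 6 libraries with the SE from limma, circles are replicates 1 and 2, and triangles are replicate 3, with 1 library a group and no error. Sfrp2 lies at -4.31 and Notum and Dkk1 at 3.29 and 2.96, and for Sfrp1, Sfrp4 and Wif1 the circle and the triangle lie on opposite sides of 0.

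By the adjusted test, 1 of the 10 antagonists was called higher in MSC and 0 higher in TAC. At an unadjusted p under 0.05 the count was 2 higher in MSC (Sfrp2 and Dkk3) and 2 higher in TAC (Dkk1 and Notum), where 6.43% and 5.42% of all genes passed. Groups did not overlap for 4 genes that were higher in MSC (Sfrp2, Dkk3, Dkk2 and Sostdc1) and for 3 that were higher in TAC (Dkk1, Notum and Frzb), where the background was 12.2% and 12.3% of all genes. The median absolute log2 difference was 1.17 over the 10 antagonists and 0.51 over all genes tested, and 5 of the 10 exceeded 1, as did 22.1% of all genes. The median signed difference was -0.07, against 0.03 over all genes. With the replicate number as a block, Sfrp2 was again the only antagonist called (adjusted p = 0.0146), while the calls over all genes went from 59 in MSC and 6 in TAC to 136 and 93. With quantile normalization, Dkk1 (adjusted p = 0.0387) and Notum (0.0328) were called beside Sfrp2, and the calls over all genes were 87 in MSC and 27 in TAC. The call of Sfrp2 was lost on leaving out replicate 1 or 2 of MSC (adjusted p of 0.0770 and 0.0757 by limma) or replicate 1 or 2 of TAC (0.0629 and 0.0630), with log2 differences between -4.48 and -4.24. In each of those 4 fits 0 of all genes were called, and 1028 to 1367 had an unadjusted p under 0.05.

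Within replicates 1 and 2 alone, 10 of 10 antagonists had an adjusted p under 0.05, where 44.2% of all genes did. This fit rests on the closeness of replicates 1 and 2. The log2 differences in those replicates were -4.14 for Sfrp2, -1.43 for Dkk3, -0.97 for Dkk2, -0.92 for Sfrp4, -0.69 for Sostdc1 and -0.65 for Sfrp1, and 0.28 for Wif1, 0.39 for Frzb, 2.20 for Dkk1 and 2.67 for Notum. In replicate 3, with 1 library a group, they were -4.67 for Sfrp2, -2.10 for Dkk3, -2.24 for Dkk2, -1.44 for Sostdc1, 0.28 for Frzb, 4.47 for Dkk1 and 4.52 for Notum. Those 7 genes kept their direction, and 3 turned: Sfrp1 to 0.68, Sfrp4 to 2.64 and Wif1 to -0.35. Of all genes, 38.8% had opposite directions in the 2 sets of libraries. The interaction of group and library set had an adjusted p under 0.05 for 9 of the 10 antagonists, all but Frzb (adjusted p = 0.464), and for 57.2% of all genes.

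Levels were compared between genes after division by exon length, as value per kb of exon. In MSC, Sfrp2 came first at 296 ± 47.3 per kb (SD, n = 3), followed by Sostdc1 at 68.8 ± 42.9, Wif1 at 35.9 ± 9.70, Dkk3 at 13.9 ± 3.93, Frzb at 13.8 ± 1.83, Sfrp1 at 3.78 ± 1.0, Dkk2 at 1.37 ± 0.12, Notum at 1.36 ± 1.17, Dkk1 at 0.473 ± 0.417 and Sfrp4 at 0.414 ± 0.358. The neighbours Sostdc1 and Wif1, Dkk3 and Frzb, Dkk2 and Notum, Notum and Dkk1, and Dkk1 and Sfrp4 overlapped across libraries. In TAC the order per kb was Wif1 at 36.9 ± 1.31, Sostdc1 at 32.4 ± 9.33, Frzb at 17.7 ± 1.49, Sfrp2 at 15.0 ± 5.14, Notum at 13.3 ± 3.25, Dkk1 at 6.09 ± 2.37, Dkk3 at 4.15 ± 0.62, Sfrp1 at 3.25 ± 0.94, Sfrp4 at 0.575 ± 0.609 and Dkk2 at 0.422 ± 0.339. Here the ranges overlapped for every pair of neighbours except Sostdc1 and Frzb, Notum and Dkk1, and Sfrp1 and Sfrp4.

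Sfrp2 made up most of the summed level of the antagonists in MSC. Its share of the sum per kb was 68.1% ± 12 in MSC and 11.7% ± 4.40 in TAC (SD, n = 3 each), and among 13588 protein-coding genes its level per kb stood at percentile 99.8 to 99.9 in MSC and 86.3 to 95.3 in TAC. The sum of the 10 levels was 436 ± 8.83 per kb in MSC and 130 ± 6.37 per kb in TAC, a ratio of 3.36. Without Sfrp2 the sums were 109, 107 and 204 in MSC and 105, 111 and 127 in TAC, so the groups overlapped, and the ratio of the means was 1.22. Wif1 and Sostdc1 together with Frzb held most of the sum in TAC, at shares of 28.5% ± 1.34, 24.8% ± 5.91 and 13.6% ± 0.49. Notum stood between percentile 28.4 and 49.4 in MSC and between 87.0 and 94.0 in TAC. Dkk1 stood at percentile 23.6 and 27.3 in MSC replicates 1 and 2 and between 72.0 and 85.9 in TAC, and no rank is given for MSC replicate 3, which had 0 reads. Wif1 stayed between percentile 97.7 and 98.3 in all 6 libraries.

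**Figure D3:**
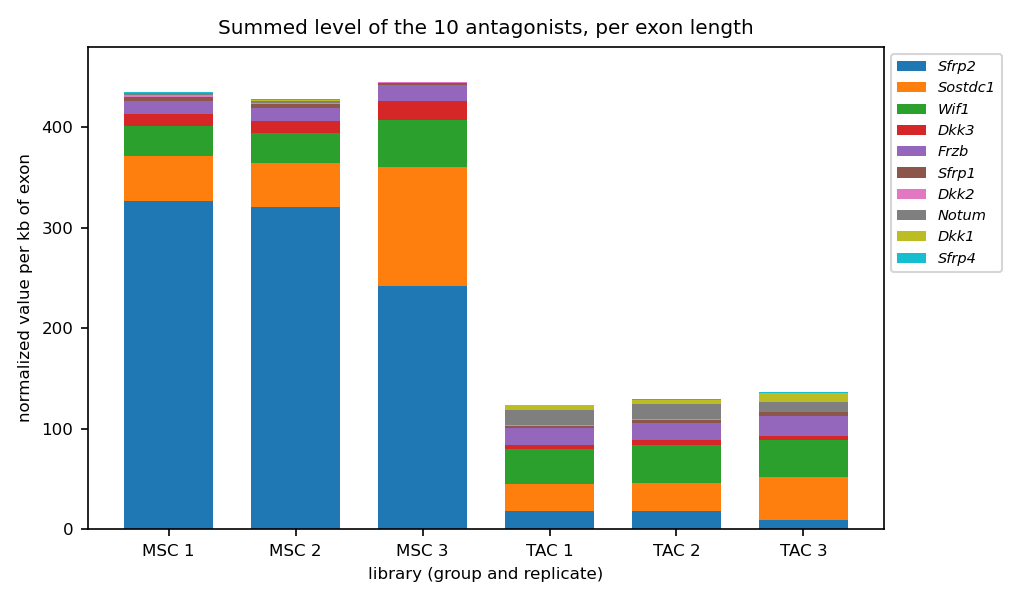
Stacked bars of the normalized value per kb of exon of the 10 antagonists in each of the 6 libraries, with the axis starting at 0. The bars add up to 428 to 446 in MSC and 124 to 136 in TAC, and the part that belongs to Sfrp2 accounts for most of the difference in height.

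Other genes of the WNT pathway were counted from lists of receptors, ligands and targets. Of 49 list genes tested, 0 passed the adjusted threshold by limma and 12 passed unadjusted, as did 11.9% of all genes. By voom on estimated reads 0 passed adjusted and 15 unadjusted, where 23.2% of all genes did. With replicates 1 and 2 averaged 2 passed unadjusted, where 3.96% of all genes did. Among 9 ligands tested, 0 were higher in MSC and 2 in TAC at unadjusted p. The count was 1 without MSC replicate 2 and likewise without TAC replicate 1 or 3, where 6.73% to 12.5% of all genes passed. It was 0 without TAC replicate 2 (6.68% of all genes) and with replicates 1 and 2 averaged (3.96%). The 2 ligands were Wnt10a, expressed by odontoblasts, at 12.7, 7.68 and 15.3 in MSC and 27.7, 30.2 and 24.0 in TAC, and Wnt6 at 5.49, 7.77 and 0.00666 (0 reads) in MSC and 16.8, 13.0 and 13.2 in TAC. Of the secretion genes, 1 of 2 passed unadjusted: Wls, the carrier that brings WNTs to the cell surface, was 34.8, 45.1 and 24.6 in MSC and 60.8, 61.8 and 80.4 in TAC. Of 10 Frizzled receptors, 1 was higher in MSC and 0 in TAC at unadjusted p, but the counts changed with the processing. They were 1 and 1 with median-ratio scaling (of all genes, 11.9% passed) or quantile normalization (14.1%). With the replicate block they were 1 and 3 (20.4%), and with the library set as a batch term 2 and 4 (29.6%). They were 0 and 1 without TAC replicate 3 (12.5%), and 0 in each direction without MSC replicate 2 (8.88%). The receptor higher in MSC with all libraries, Fzd6, had values of 13.8, 15.9 and 28.8 in MSC and of 8.74, 8.54 and 3.56 in TAC.

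Of the LRP and Kremen genes, partners of Dkk1, Dkk2 or Sostdc1, 0 of 4 tested passed by limma at unadjusted p. With the replicate block 1 passed as higher in MSC and 1 as higher in TAC, where 20.4% of all genes passed. Without TAC replicate 3 there was 1, higher in TAC, where 12.5% of all genes passed. Lrp5 was 108, 114 and 45.6 in MSC and 77.1, 72.2 and 20.01 in TAC, and Lrp6 was 123, 121 and 28.1 in MSC and 112, 110 and 18.5 in TAC. Both were lower in replicate 3 than in the other libraries of the same group, which for these genes was a larger step than that between the groups. Kremen1, a DKK receptor, was 36.4, 33.7 and 32.2 in MSC and 79.1, 79.0 and 33.8 in TAC, with a log2 difference of 0.79 (SE 0.38, adjusted p = 0.477). The difference was 1.15 in replicates 1 and 2 and 0.07 in replicate 3. Kremen2 was not analysed here.

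Among 11 other extracellular modulators tested, 2 were higher in MSC and 0 in TAC at unadjusted p. The counts were 1 and 0 when replicate 1 or 2 of either group was left out, where 6.68% to 8.88% of all genes passed. They were 4 and 0 without MSC replicate 3 (20.2% of all genes), and 2 and 2 without TAC replicate 3 (12.5%). Rspo1, an R-spondin that strengthens WNT signalling by holding off the removal of Frizzled receptors, was 20.3, 18.5 and 23.7 in MSC and 7.86, 5.54 and 1.19 in TAC, a log2 difference of -2.11 (SE 0.58, adjusted p = 0.201). Tpbg, a membrane inhibitor of WNT signalling, was 24.7, 20.1 and 28.8 in MSC and 12.9, 14.3 and 12.9 in TAC. Sfrp5 and Sost, relatives of the antagonists, had a mean value below 1 and were not tested.

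The list of canonical feedback targets held 13 tested genes, of which 1 was higher in MSC and 5 in TAC at unadjusted p, beside 6.43% and 5.42% of all genes, with a median log2 difference of 0.60 against 0.03 over all genes. With replicates 1 and 2 averaged, 0 were higher in MSC and 1 in TAC, where 3.96% of all genes passed unadjusted in either direction. Nkd2, which binds Dishevelled, was 11, 11.6 and 18.7 in MSC and 40.8, 41.3 and 45.1 in TAC, a log2 difference of 1.59 (SE 0.31, adjusted p = 0.108). Bambi, a decoy receptor of the TGF-β family, was 53.0, 50.9 and 70.3 in MSC and 134, 140 and 130 in TAC. Ccnd1 (cyclin D1) was 65.4, 65.6 and 60.5 in MSC and 102, 102 and 124 in TAC. The log2 differences of Lgr6 and Tnfrsf19 were 1.35 and 1.40, with groups that did not overlap. The R-spondin receptor Lgr4 went the other way, at 44.3, 46.3 and 59.4 in MSC and 26.3, 25.8 and 21.1 in TAC. Axin2 did not pass (log2 difference 0.60, SE 0.60, adjusted p = 0.758), nor did Lef1, a TCF/LEF factor, at 56.1, 55.2 and 10.9 in MSC and 31.9, 30.7 and 19.8 in TAC (log2 difference -0.27, SE 0.63, adjusted p = 0.922). The difference of Lef1 turned between the library sets, at -0.81 in replicates 1 and 2 and 0.81 in replicate 3. That of Axin2 was 0.18 and 1.43.

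**Figure D4:**
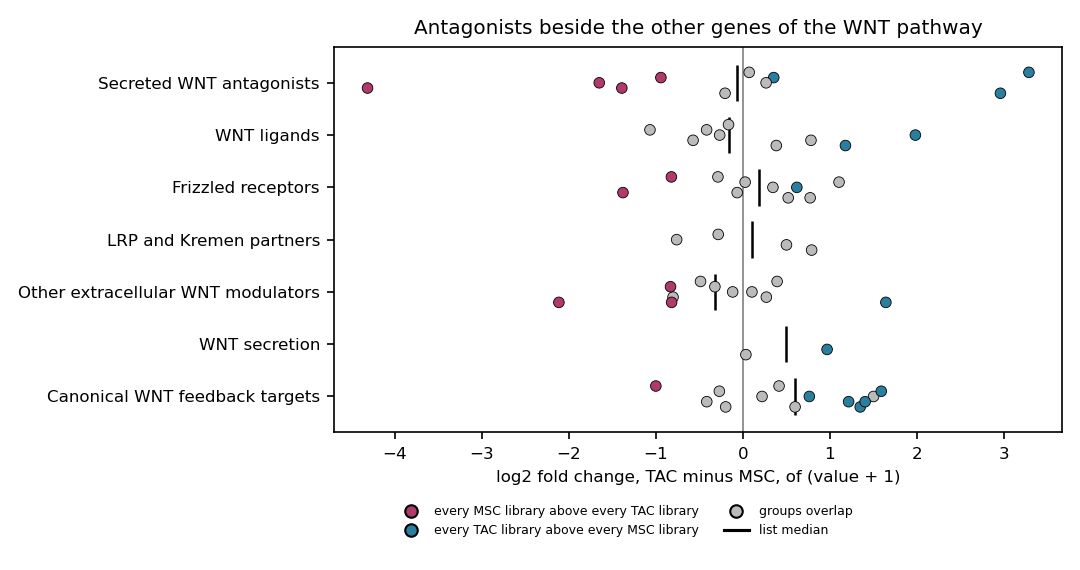
Log2 fold change, TAC minus MSC, of the value plus 1 for each tested gene (points) of the antagonists and of 6 lists of other WNT pathway genes, with a line at each list's median and colours for genes whose groups do not overlap. Sfrp2, at -4.31, and Notum and Dkk1, at 3.29 and 2.96, are the outermost points, and the medians of the antagonists and the feedback targets are -0.07 and 0.60.

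Markers of other cell types moved with the groups, and their part in the differences of the antagonists was not tested. Beside Sfrp2, Dkk3 and Dkk2, the smooth muscle and pericyte list was higher in MSC, with 9 of 9 tested genes at unadjusted p and 5 at adjusted p. Its summed value was 1049 to 1726 in MSC and 192 to 236 in TAC, led by the pericyte gene Rgs5 (276, 268 and 880 in MSC and 40.3, 38.6 and 42.2 in TAC), and Cnn1 had 0 reads in TAC replicate 3 and Des in replicate 3 of each group. The endothelial list had 3 of 8 tested genes higher in MSC at unadjusted p and sums of 203 to 290 in MSC and 115 to 122 in TAC.

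Beside Dkk1 and Notum, the list of proliferating cells was higher in TAC, with 9 of 10 genes at unadjusted p and 1 at adjusted p. Its sum was 137 to 238 in MSC and 417 to 1090 in TAC, led by Mki67 (137, 130 and 41.5 in MSC and 593, 630 and 122 in TAC), and Bub1 and Aurkb had 0 reads in MSC replicate 3. Over 7 genes of dental epithelium the sum was 31.1 to 33.3 in MSC and 57.6 to 88.9 in TAC, and 1 of 6 tested, Epcam, passed at unadjusted p. In MSC replicate 3, 43.1% of all listed genes had 0 reads. Dkk1 and Sfrp4 were among them, as were the epithelial genes Epcam, Cdh1, Sox2, Trp63 and Shh and the osteoblast gene Ibsp. Whether these zeros are related was not tested. The keratin gene Krt14 was 12.9, 8.84 and 16 in MSC and 18.1, 16.1 and 35.6 in TAC. Ameloblast genes, led by Amelx, had sums of 305 to 3692 in MSC and 2537 to 3345 in TAC, and odontoblast genes, led by Dspp, sums of 855 to 5395 and 4515 to 4920, each lowest in MSC replicate 3. At unadjusted p, 0 of 7 and 2 of 8 of these genes passed, and 0 passed adjusted by limma.

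The remaining lists, each given as the range of its summed value, were pulp mesenchyme (3473 to 11639 in MSC and 9440 to 12725 in TAC), osteoblasts (256 to 380 and 262 to 793), dental follicle and periodontal cells (620 to 652 and 1377 to 1635), Schwann cells (24.3 to 49.9 and 8.58 to 19.3), macrophages (79.9 to 240.3 and 47.4 to 134.8), skeletal muscle (1.74 to 7.33 and 2.28 to 2.98) and chondrocytes (70.9 to 205 and 100.1 to 247). Genes of these lists did not pass the adjusted threshold by limma, and 3 of 10, 0 of 7, 3 of 7, 1 of 5, 0 of 8, 0 of 1 and 2 of 4 tested genes, in the order given, passed unadjusted. The gap of the dental follicle sum was carried by Ptn, a secreted growth factor (428, 439 and 447 in MSC and 1436, 1466 and 1175 in TAC), while the median log2 difference of that list was -0.21.

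The genes with the profile most like that of an antagonist were named by Pearson's r of log2 values over the 6 libraries, for the 3 antagonists with the smallest p. For Sfrp2 they were Hif3a, a hypoxia-inducible factor subunit (r = 0.999), Spock1, a secreted proteoglycan (r = 0.998), and Cyp26b1, which breaks down retinoic acid (r = 0.998). Hif3a was 48.3, 47.2 and 31.1 in MSC and 2.89, 3.09 and 1.40 in TAC. For Dkk3 they were Zfp36, Stim1 and Zc3h12a (r of 0.996, 0.996 and 0.995), and for Dkk1 they were Galm, Entpd5 and Etv5 (r of 0.998, 0.998 and 0.997). Etv5, an ETS factor, was 8.42, 11.1 and 4.41 in MSC and 39.3, 36.8 and 54.1 in TAC. The points share the group and the library set, and these values are the highest of all genes tested, so they describe profiles only.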

How the data were processed

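RNA from laser-captured incisor cells, 3 libraries in each of 2 groups, was sequenced by the authors. Per the labels and the methods, reads were handled with CASAVA 1.8.2 and aligned to mm10 with TopHat2 2.0.8, and Partek was used. The counting step and its use of strand are not given in the sources used here. The deposited table was used as signal. The methods name RPKM, but the values were taken as not scaled by gene length. Reads were estimated by taking the lowest value of each library as 0 reads and each further step of that size as 1 read. Every read number, 0 reads included, rests on this assumption. Of non-zero values under 200 reads, 65.1% to 71.7% were within 0.02 of a whole read, so no count test was the main result. The study's methods give 3 mice in each group and describe the sequenced samples as pairs. Replicate numbers come from the titles, which do not name the mice.

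Genes with a mean value of at least 1 (15391) were tested on log2(value + 1) with limma 3.58.1 in R 4.3.3 (variance trend, Benjamini-Hochberg over all genes, threshold 0.05, two-sided), without a block, and with a group-by-library-set term for the difference between replicate 3 and replicates 1 and 2. The p-values measure the spread between these libraries. Replicates 1 and 2 were counted separately, as labelled. Their estimated reads differed by more than counting noise, which does not show whether they are separate animals or repeat preparations, and a fit with both averaged was an alternative. Deviations from the group means correlated between same-numbered libraries (r of 0.477, 0.465 and 0.517), as did those of replicates 1 and 2 across numbers (0.462 and 0.480), so the pairing is that of the library sets, and a replicate block was run. Exon lengths were those of GENCODE M21, which has the same start and, after 1 was taken from the deposited end, the same end for 10 of 10 genes, and promoters were those of RefSeq. The fitting step was also run on simulated counts. Those had no difference between library sets, so that run does not show how the test behaves with replicate 3 set apart. Intervals for 0 reads take 3 reads and cover counting error only.

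The 10 genes and the lists were chosen with earlier results of these data known. Named pathway genes passed the unadjusted threshold with groups that did not overlap, together with Lrp5, Lrp6, Kremen1, Kremen2, Axin2 and Lef1. From a cell type list that moved with an antagonist, the gene with the largest summed value was named. The dental epithelium list is given without 1 gene, which is not reported here. Alternatives were another pseudocount, filter, scaling, variance model, block, batch term or library set, voom, and leaving out each library.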

Additional observations from a re-analysis of the deposited data

Results flagged for a closer look

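The difference between TAC and MSC was not the same in replicate 3 as in replicates 1 and 2 for 9 antagonists, by limma's test of the interaction between group and library set (adjusted p under 0.05, as for 57.2% of all genes). Replicate 3 minus replicates 1 and 2, the difference in log2 was 3.56 for Sfrp4, 2.27 for Dkk1, 1.85 for Notum and 1.32 for Sfrp1, and -0.53 for Sfrp2, -0.63 for Wif1, -0.67 for Dkk3, -0.75 for Sostdc1 and -1.27 for Dkk2. The difference reversed for Sfrp1, Sfrp4 and Wif1, and for Sfrp2, Dkk1, Dkk2, Dkk3, Notum and Sostdc1 it was larger in replicate 3 in the same direction. In MSC replicate 3, Dkk1 and Sfrp4 had 0 reads and Notum had 5. The test has 1 library a group in replicate 3, so its error comes from replicates 1 and 2, and what sets the library sets apart was not tested.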

How the results depend on the processing

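Under alternatives with a test, Sfrp2 stayed lower in TAC, with log2 differences between -4.48 and -4.0, and was called in 15 of 19. The antagonists called numbered 1, and 3 with quantile normalization (Sfrp2, Dkk1 and Notum), 5 with the library set as a batch term (Sfrp2, Dkk1, Dkk3, Notum and Sostdc1), 10 with replicates 1 and 2 only, and 0 to 3 when each library was left out. At unadjusted p they numbered 4 (of all genes, 11.9%), and 7 with the batch term (29.6%), 10 with replicates 1 and 2 only (51.9%), 3 with a mean of at least 10 (14.6%), 5 with a pseudocount of 5 (12.3%), quantile normalization (14.1%), no variance trend (11.7%) or voom (23.2%), and 4 to 6 when each library was left out (6.68% to 20.2%). With the replicate block there were 6 at unadjusted p (20.4% of all genes), with Dkk2 and Sostdc1 beside Sfrp2, Dkk1, Dkk3 and Notum. At adjusted p there was 1, and the block changed no other call of an antagonist. Of all genes, 65 were called, and 38 with a pseudocount of 0.1, 114 with quantile normalization, 29 without the variance trend, 229 with the replicate block, 1814 with the batch term, 6796 with replicates 1 and 2 only, 10 with those replicates averaged, 23 with voom and 0 to 292 when each library was left out. Genes of the WNT lists called numbered 0, and 12 with the batch term, 33 with replicates 1 and 2 only and 0 to 2 when each library was left out. The cause of these changes was not tested.

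Under these alternatives the direction turned for Sfrp1, Sfrp4 and Wif1, none of which was called with all 6 libraries. The log2 difference of Sfrp1 was 0.68 in replicate 3 only, 0.016 with replicates 1 and 2 averaged and 0.038 with voom, that of Sfrp4 was -0.92 in replicates 1 and 2 only and -0.34 to 0.74 when each library was left out, and that of Wif1 was -0.35 in replicate 3 only, -0.033 with replicates 1 and 2 averaged and -0.036 to 0.28 when each library was left out. Dkk1 and Sfrp4 had 0 reads in MSC replicate 3, which allows a value of up to 0.0266 by counting error alone, although that library had more estimated reads than MSC replicates 1 and 2, and the cause was not tested. The log2 difference of Dkk1 was 4.34 with a pseudocount of 0.1, 1.66 with 5 and 7.88 with voom, that of Dkk2 was -2.17, -0.64 and -4.01, and that of Sfrp4 was 0.87, 0.11 and 5.76.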
